A study of Homo sapiens with 18 samples.

Results

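The genes described here are 10 components that carry signals from Toll-like receptors and IL-1 family receptors inside the cell. They are the adaptors MYD88, TIRAP, TICAM1 (TRIF) and TICAM2 (TRAM), the kinases IRAK4, IRAK1 and IRAK2, the inhibitors IRAK3 (IRAK-M) and TOLLIP, and MAP3K7 (TAK1). They were chosen by name, and all 10 symbols were found among the 63677 genes of the count table. Read counts had been deposited for 18 libraries, in 6 groups of 3, of the THP-1 line, which derives from a human monocytic leukaemia. Cells received an siRNA against TRAFD1 at 25 nM (KD), a scrambled siRNA at 25 nM (SCR) or no siRNA (WT), and 72 h later were left unstimulated or given 10 ng/ml of LPS, a bacterial cell wall component, for 4 h. Replicates 1 to 3 of each condition were unstimulated and replicates 4 to 6 received LPS. The descriptions differ on WT, which is given as untreated for the series and as exposed to the transfection mix without siRNA for the samples, so that effects of reagent and siRNA cannot be told apart in a comparison with WT. All libraries come from 1 cell line and 1 siRNA against TRAFD1, and nothing in the descriptions says whether replicates were separate transfections, so p-values measure the spread between these libraries.

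As background, LPS is sensed by TLR4 with its co-receptors LY96 (MD-2) and CD14. At the cell surface TIRAP brings MYD88 to the receptor, MYD88 assembles IRAK4 with IRAK1 or IRAK2, and the signal passes through TRAF6 to MAP3K7, which activates the IKK complex and the MAP kinases. From endosomes TLR4 signals through TICAM2 and TICAM1 to TRAF3, TBK1 and IRF3, which induce interferon, and in monocytes and macrophages IRAK3 and TOLLIP restrain the MYD88 branch. TRAFD1 encodes a TRAF-type zinc finger protein that has been described as a negative regulator of Toll-like receptor signaling.

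Promoter windows, from 250 bases before to 50 after the gene's start, were taken from RefSeq on GRCh38.p14. A window was found for 9 of the 10 genes. Those of the 3 genes with the largest called LPS responses in KD cells are shown, on the strand of the gene, with motif matches in capitals. They lie at chr3:10164669-10164968 on the plus strand for IRAK2, chr3:38138411-38138710 on the plus strand for MYD88 and chr19:4831663-4831962 on the minus strand for TICAM1.
IRAK2: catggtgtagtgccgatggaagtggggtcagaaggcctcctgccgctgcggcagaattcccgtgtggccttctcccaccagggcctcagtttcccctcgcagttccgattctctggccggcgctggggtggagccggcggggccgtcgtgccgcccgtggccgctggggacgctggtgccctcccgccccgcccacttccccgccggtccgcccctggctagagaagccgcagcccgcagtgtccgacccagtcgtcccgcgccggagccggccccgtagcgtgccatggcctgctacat
MYD88: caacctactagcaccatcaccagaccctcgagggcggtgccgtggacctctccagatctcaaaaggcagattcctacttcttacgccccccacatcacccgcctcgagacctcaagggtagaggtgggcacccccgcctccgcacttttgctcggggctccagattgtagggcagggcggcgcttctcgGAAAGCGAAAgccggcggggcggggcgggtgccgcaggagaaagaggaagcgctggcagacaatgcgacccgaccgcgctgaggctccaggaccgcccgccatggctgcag
TICAM1: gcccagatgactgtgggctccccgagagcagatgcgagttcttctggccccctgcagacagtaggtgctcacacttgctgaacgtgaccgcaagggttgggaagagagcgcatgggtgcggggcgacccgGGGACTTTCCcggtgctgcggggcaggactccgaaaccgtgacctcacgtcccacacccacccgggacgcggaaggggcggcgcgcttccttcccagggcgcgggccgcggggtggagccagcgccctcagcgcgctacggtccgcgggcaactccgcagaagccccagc
Matches were searched on both strands for the NF-kB consensus, for TGANTCA, the AP-1 motif, and for the interferon-stimulated response element. Among 35116 promoter windows of the same length, 5.91%, 7.71% and 3.57% held a match, respectively. The window of TICAM1 held an NF-kB match at positions -120 to -111, with the start base counted as 0. The window of MYD88 held a match to the interferon-stimulated response element at positions -61 to -52. IRAK1 and TICAM2 each held a TGANTCA match, at -1 to 5 and 11 to 17. The windows of IRAK2, IRAK3, IRAK4, MAP3K7 and TOLLIP held no match to these letters, which says nothing about regions outside them.

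Libraries held 8206023 to 22344279 counts. Values are CPM, counts per 1000000 counts of a library after TMM scaling, in which each count comes from the 3-prime end of a transcript and gene length does not enter. Without LPS the siRNA target TRAFD1 was at 8.67 ± 3.14 CPM in KD, against 23.7 ± 3.38 CPM with the scrambled siRNA and 20.6 ± 1.99 CPM in WT (SD, n = 3). With LPS it was at 14.5 ± 1.12 CPM in KD, 22.7 ± 4.42 CPM with the scrambled siRNA and 17 ± 4.75 CPM in WT. In unstimulated KD cells its level was below that of SCR (log2 fold change -1.45, adjusted p = 0.0277) and that of WT (-1.23, adjusted p = 0.00156). With LPS neither difference passed the test (-0.65, adjusted p = 0.262, against SCR, and -0.23, adjusted p = 0.563, against WT). The KD and WT libraries overlapped, whereas KD libraries, at 13.8 to 15.8 CPM, were all below SCR libraries, at 18.7 to 27.5 CPM. Against SCR the unadjusted p of TRAFD1 was under 0.05 by edgeR, and 0 of all genes passed in that comparison. Comparisons of KD under LPS are therefore between groups whose TRAFD1 levels were not shown to differ after adjustment. Of the LPS response genes TNF, IL1B, CXCL8, CXCL10 and NFKBIA, 5 of 5 rose with LPS in each condition. Without LPS, 3 of the 5 were higher in SCR than in WT, where 3.23% of all genes changed. In KD it was also 3 of the 5, where 11.7% of all genes changed. The response was smaller than in WT for 3 of the 5 in SCR and 1 of the 5 in KD. Over all genes, 0.234% and 0.36% of responses differed in these 2 comparisons. Of 9 monocyte markers 9 were expressed, together at 642 to 749 CPM, and markers of T cells summed to at most 0.616 CPM, of B cells to 4.28 CPM, of erythroid cells to 0.113 CPM and of epithelial cells to 0.604 CPM. In bulk RNA, fewer cells with a transcript and less of it per cell cannot be told apart.

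Differential expression was tested with edgeR's quasi-likelihood test across 16678 genes, and a gene is said to have risen, fallen or changed only where its Benjamini-Hochberg adjusted p was under 0.05. Of the 10 genes 9 were tested. In response to LPS, 3 of the 9 rose and 0 fell in WT, 2 rose and 1 fell in SCR, and 4 rose and 0 fell in KD. Over all genes tested, 14.3% changed with LPS in WT, 17.2% in SCR and 11.5% in KD, in either direction. The median log2 fold change of the 9 genes was 0.39 in WT, 0.26 in SCR and 0.48 in KD, where the median over all genes was -0.03, -0.03 and -0.0029. Each median of the 9 is the value of 1 gene that did not pass the test there, TIRAP in WT, MYD88 in SCR and IRAK4 in KD. No shift of the set is read from it. IRAK2 was the only one of the 9 that rose in all 3 conditions.

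**Figure D1:**
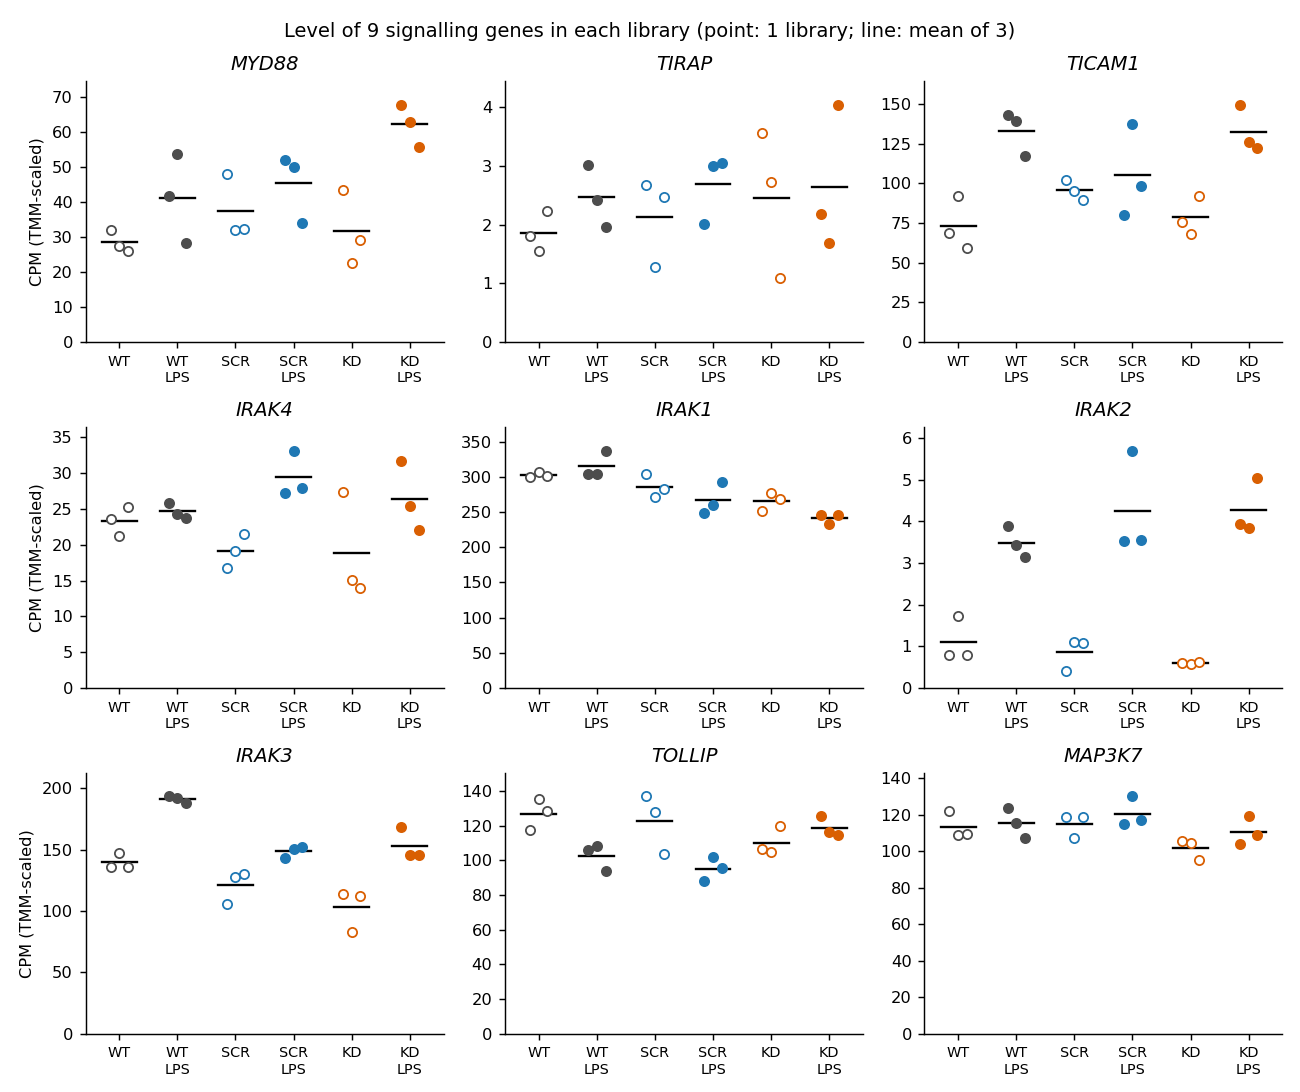
CPM in each library, after TMM scaling, for the 9 genes tested, on linear axes that start at 0. Points are single libraries, open without and filled with LPS, and horizontal lines are means of 3 libraries; IRAK2 separates the LPS libraries from the unstimulated ones in every condition, whereas IRAK1 and MAP3K7 stay within narrow ranges.

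MYD88 (ENSG00000172936, chromosome 3, 38180043 to 38184515 of GRCh37, plus strand, 5 exons) is the adaptor that nearly all Toll-like receptors and the IL-1 receptors share. Unstimulated WT libraries held 32.1, 27.3 and 25.9 CPM and those with LPS 41.7, 53.6 and 28.2 CPM. In SCR the values were 48.0, 32.0 and 32.2 CPM without and 52.1, 49.8 and 33.9 CPM with LPS. In KD they were 43.3, 22.6 and 29.2 CPM without and 67.7, 62.8 and 55.8 CPM with LPS. Only in KD did the libraries with and without LPS not overlap, and the 3 KD libraries with LPS were above the other 15. MYD88 rose with LPS in KD (log2 fold change 0.96, SE 0.23, adjusted p = 0.00821), which is 1.95-fold. In WT the log2 difference was 0.54 (95% interval 0.06 to 1.02, adjusted p = 0.137), and in SCR it was 0.26 (-0.21 to 0.74, adjusted p = 0.483). WT replicate 6 decided the call in WT, since without it the difference was 0.75 (adjusted p = 0.0389). The test with no filter on low counts also called it (0.53, adjusted p = 0.00624).

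TICAM1 (ENSG00000127666, chromosome 19, 4815944 to 4831724, minus strand, 2 exons) encodes TRIF, the adaptor of TLR3 and of endosomal TLR4. In WT it was at 68.6, 92.3 and 59.2 CPM without and 143, 140 and 117 CPM with LPS. In KD it was at 75.9, 68.1 and 91.9 CPM without and 150, 126 and 122 CPM with LPS. In both conditions every library with LPS exceeded every unstimulated one, and the rise was 1.82-fold in WT (log2 0.87, SE 0.17, adjusted p = 0.00123) and 1.69-fold in KD (log2 0.75, SE 0.17, adjusted p = 0.00595). In SCR the libraries overlapped, with 102, 94.9 and 89.7 CPM without and 80.2, 138 and 98.1 CPM with LPS. The log2 difference in SCR was 0.14 (95% interval -0.21 to 0.50, adjusted p = 0.622), and it changed sign to -0.10 without SCR replicate 5. The unstimulated SCR libraries were 1.31-fold above those of WT on average (log2 0.39, adjusted p = 0.24), which did not pass the test.

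TIRAP (ENSG00000150455, chromosome 11, 126152392 to 126168740, plus strand, 5 exons), the bridging adaptor of TLR2 and TLR4, was rare. Over the 18 libraries it held 14 to 60 counts, or 1.09 to 4.04 CPM. Group means ran from 1.86 ± 0.343 CPM in unstimulated WT to 2.68 ± 0.578 CPM in SCR with LPS (SD, n = 3), and libraries with and without LPS overlapped in every condition. Its LPS response on the log2 scale was 0.39 for WT, 0.32 for SCR and 0.09 for KD, with 95% intervals of -0.48 to 1.26, -0.54 to 1.18 and -0.77 to 0.94. Changes within these intervals were not detectable at this depth. Of the last 500 bases of TIRAP, in which reads were counted, 44.6% lie opposite the antisense gene TIRAP-AS1, which held 0 to 10 counts per library. The strand setting of the counting is not given in the sources used here, so that reads of TIRAP and TIRAP-AS1 may not be separable.

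TICAM2 (ENSG00000243414, chromosome 5, 114914193 to 114938176, minus strand, 2 exons) encodes TRAM, which links TLR4 to TICAM1. It held 3 counts in all 18 libraries, of which 2 were in SCR replicate 3 (0.154 CPM) and 1 was in SCR replicate 6 (0.0709 CPM), and was not tested. A count of 0 allows a level of up to 0.133 to 0.378 CPM, depending on the library, for counting error alone. The readthrough gene TMED7-TICAM2 covers 70.8% of the last 500 bases of TICAM2 on the same strand. It held 5 counts over all libraries. Reads that lie in both genes may have been assigned to neither, so the level of TICAM2 is uncertain.

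IRAK4 (ENSG00000198001, chromosome 12, 44152747 to 44192110, plus strand, 12 exons) is the first kinase to join MYD88. In WT it was at 23.6, 21.2 and 25.3 CPM without and 25.9, 24.3 and 23.8 CPM with LPS, and these ranges overlapped. In SCR it was at 16.8, 19.2 and 21.5 CPM without and 27.2, 33.2 and 27.9 CPM with LPS, with no overlap. It rose 1.54-fold in SCR (log2 0.63, SE 0.20, adjusted p = 0.0309), a call that was lost without SCR replicate 1, 2, 5 or 6 (adjusted p = 0.139, 0.0708, 0.119 and 0.0534). KD libraries held 27.3, 15.1 and 14.0 CPM without and 31.7, 25.4 and 22.0 CPM with LPS, and KD replicate 1 stood well above the other two unstimulated ones. The log2 difference in KD was 0.48 (adjusted p = 0.123), and omitting KD replicate 1 raised it to 0.86 (adjusted p = 0.000915).

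IRAK1 (ENSG00000184216, chromosome X, 153275957 to 153285353, minus strand, 14 exons) is the kinase that is recruited and then degraded after receptor engagement. It had the highest counts of the 10 genes, at 234 to 338 CPM. WT libraries held 301, 307 and 301 CPM without and 305, 305 and 338 CPM with LPS, and KD libraries 252, 278 and 269 CPM without and 246, 234 and 246 CPM with LPS. The means of SCR lay between theirs, with libraries at 305, 272 and 283 CPM without and 248, 260 and 293 CPM with LPS. IRAK1 passed the test for LPS in 0 of 3 conditions, with log2 differences of 0.06 for WT, -0.10 for SCR and -0.14 for KD. The 95% intervals were -0.11 to 0.23, -0.27 to 0.07 and -0.31 to 0.03, so that a rise or fall of its RNA by 1 log2 unit lay outside all of them.

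IRAK2 (ENSG00000134070, chromosome 3, 10206603 to 10285429, plus strand, 13 exons) is the IRAK that sustains late signaling. Unstimulated cells held 7 to 19 counts per library, which is 0.791, 1.73 and 0.801 CPM in WT, 0.400, 1.1 and 1.08 CPM in SCR and 0.604, 0.578 and 0.622 CPM in KD. With LPS the libraries held 28 to 82 counts, or 3.89, 3.43 and 3.13 CPM in WT, 3.53, 5.70 and 3.54 CPM in SCR and 3.93, 3.84 and 5.03 CPM in KD. All 9 LPS libraries were above all 9 unstimulated ones. The rise was 3.27-fold in WT (log2 1.71, SE 0.39, adjusted p = 0.00382), 5.23-fold in SCR (log2 2.39, SE 0.40, adjusted p = 0.000246) and 7.0-fold in KD (log2 2.81, SE 0.41, adjusted p = 7.65e-05). These calls were kept in every alternative run. The level that the filter on low counts asks for, 0.794 CPM before scaling, was reached in 5 of 9 unstimulated and 9 of 9 LPS libraries, so that IRAK2 did not enter the test through its LPS libraries alone. Its 6 group means spanned 2.55 log2 units, and 2.08% of genes tested had a larger span. Over the centred log2 means of the 6 groups, the genes most like IRAK2 were RAB39A, CD274 and TNFAIP2, with root mean square differences of 0.114, 0.134 and 0.232.

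**Figure D2:**
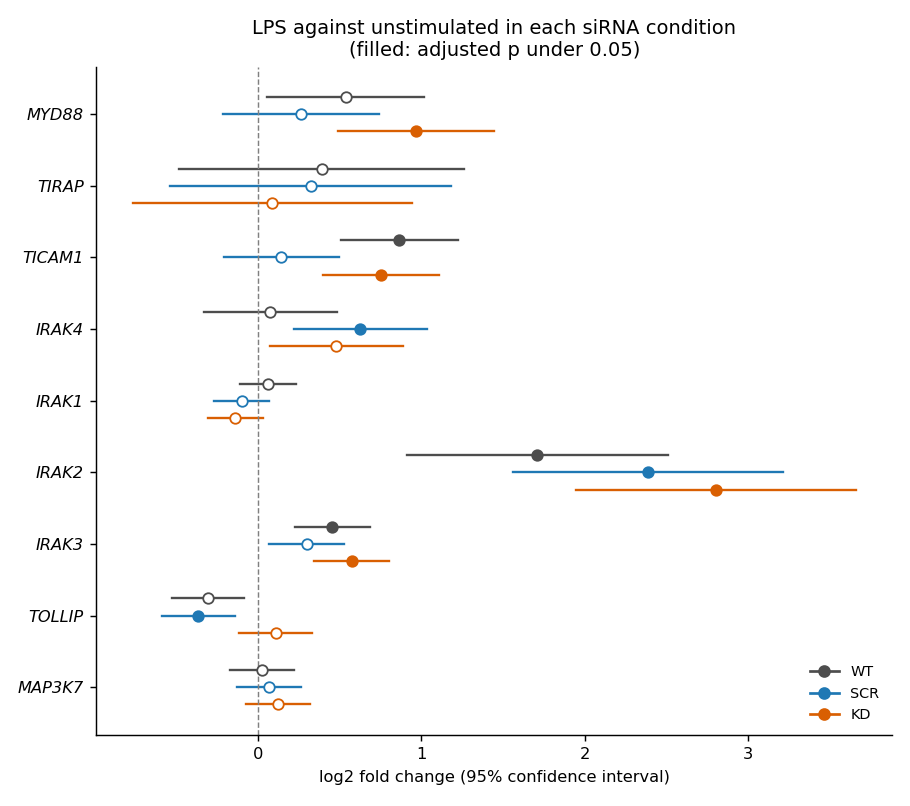
Log2 fold change of LPS against unstimulated cells for each gene, with 95% confidence intervals from edgeR, in WT (grey), SCR (blue) and KD (orange). Filled points had an adjusted p under 0.05; IRAK2 lies at 1.71 to 2.81 in the 3 conditions, whereas the intervals of IRAK1 and MAP3K7 include 0 throughout.

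IRAK3 (ENSG00000090376, chromosome 12, 66582975 to 66648402, plus strand, 12 exons) encodes IRAK-M, an IRAK without effective kinase activity that is found mainly in monocytes and macrophages. WT libraries were at 136, 147 and 136 CPM without and 193, 192 and 188 CPM with LPS. SCR libraries were at 106, 128 and 130 CPM without and 143, 151 and 152 CPM with LPS, and KD libraries at 114, 83.2 and 112 CPM without and 169, 145 and 145 CPM with LPS. Every LPS library was above every unstimulated library of the same condition. IRAK3 rose in WT (1.37-fold, log2 0.46, SE 0.11, adjusted p = 0.00662) and in KD (1.49-fold, log2 0.57, SE 0.11, adjusted p = 0.00144). In SCR the log2 difference of 0.30 missed the threshold (adjusted p = 0.069). It was called by DESeq2 (adjusted p = 0.0486) and in a fit to the SCR libraries alone (adjusted p = 0.0447). The last 500 bases of IRAK3 hold 27.2% G and C, less than in most genes, and the IRAK3 response in SCR was 0.15 with GC content as an offset, an alternative chosen after seeing the data.

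TOLLIP (ENSG00000078902, chromosome 11, 1295601 to 1330884, minus strand, 6 exons) encodes a protein that binds IRAK1 and dampens its activation. In SCR it was at 137, 128 and 104 CPM without and 88.1, 102 and 95.9 CPM with LPS, and fell by 0.37 on the log2 scale (SE 0.11, adjusted p = 0.0211). In WT it was at 117, 135 and 129 CPM without and 106, 108 and 93.8 CPM with LPS, a log2 difference of -0.31 (adjusted p = 0.0601). In neither of these conditions did the libraries overlap. In KD they did, at 106, 105 and 120 CPM without and 126, 116 and 115 CPM with LPS, with a log2 difference of 0.11 (95% interval -0.11 to 0.33, adjusted p = 0.561). The call in SCR was lost without SCR replicate 1, 2, 4 or 6 (adjusted p = 0.134, 0.0719, 0.119 and 0.0598) and with GC content as an offset (log2 -0.26, adjusted p = 0.0878). With that offset, the fall in WT was called (log2 -0.30, adjusted p = 0.0493).

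MAP3K7 (ENSG00000135341, chromosome 6, 91223292 to 91296805, minus strand, 17 exons) encodes TAK1, the kinase on which the MYD88 branch converges. Its libraries lay between 95.1 and 130 CPM. Group means ran from 102 ± 5.71 CPM in unstimulated KD to 121 ± 8.29 CPM in SCR with LPS (SD, n = 3), a span of 0.245 log2 units, and 95.7% of genes tested had a larger one. MAP3K7 passed the test for LPS in 0 of 3 conditions. The log2 differences were 0.02 in WT, 0.07 in SCR and 0.12 in KD, with 95% intervals of -0.17 to 0.22, -0.13 to 0.26 and -0.07 to 0.32. Leaving out WT replicate 2, 3 or 4 turned the value in WT below 0, and the GC offset turned those in SCR and KD below 0.

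The next question was whether knockdown of TRAFD1 altered these genes. Comparisons of KD with SCR, SCR with WT and KD with WT share libraries and are not independent. Between KD and SCR, 0 of the 9 genes passed the test in unstimulated cells, where 0.066% of all genes did, and 0 with LPS, where 0% did. At an unadjusted p under 0.05 there was 1 of the 9 in each state, and 2107 and 1963 of all genes. DESeq2 also called 0 of the 9 in either state, and 242 and 142 genes overall. IRAK3 was at 103 ± 17 CPM in unstimulated KD and 121 ± 13.3 CPM in SCR (SD, n = 3), with overlapping libraries (log2 -0.23, 95% interval -0.46 to -0.0034, adjusted p = 0.388). MAP3K7 was the only one of the 9 without overlap in unstimulated cells, at 95.1 to 106 CPM in KD and 107 to 119 CPM in SCR. With LPS, TOLLIP was at 119 ± 6.05 CPM in KD and 95.3 ± 6.95 CPM in SCR (log2 0.32, 95% interval 0.09 to 0.54, adjusted p = 0.253). Besides TOLLIP, MYD88 and IRAK1 did not overlap between KD and SCR with LPS. MYD88 was at 55.8 to 67.7 CPM in KD and 33.9 to 52.1 CPM in SCR, and IRAK1 at 234 to 246 CPM and 248 to 293 CPM. How many of all genes had no overlap was not counted. A full separation of 3 libraries from 3 gives an exact permutation p of 0.1, so no result is read from it.

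SCR and WT differ in the scrambled siRNA and, if WT was untreated, in the transfection reagent, which cannot be told apart here. Of the 9 genes, 0 passed the test in unstimulated cells, where 3.23% of all genes did, and 0 with LPS, where 0.114% did. At an unadjusted p under 0.05 there were 1 and 2 of the 9, and 2866 and 2285 of all genes. DESeq2 called 0 of the 9 in either state. How many of all genes it called there is not given here, so no absence of change is read from it. In unstimulated cells the libraries of IRAK3 alone did not overlap, at 106 to 130 CPM in SCR and 136 to 147 CPM in WT. With LPS, IRAK3 was at 149 ± 4.92 CPM in SCR and 191 ± 2.65 CPM in WT (log2 -0.36, 95% interval -0.59 to -0.13, adjusted p = 0.189). IRAK1 was at 267 ± 22.9 CPM in SCR and 316 ± 19.2 CPM in WT with LPS (log2 -0.24, 95% interval -0.41 to -0.07, adjusted p = 0.228). In both genes each SCR library with LPS was below each WT library with LPS. IRAK4 went the other way, at 27.2 to 33.2 CPM in SCR and 23.8 to 25.9 CPM in WT with LPS. Here too, genes without overlap were not counted over all genes, so these separations are descriptions only.

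Between KD and WT 1 of the 9 genes changed in each state. TRAFD1 itself was lower in KD in unstimulated cells and was not shown to differ with LPS. Over all genes 11.7% changed in unstimulated cells and 10.8% with LPS, so that 1 of 9 is near the share of all genes. In unstimulated cells IRAK3 was lower in KD, at 103 ± 17 CPM against 140 ± 6.47 CPM in WT (0.738-fold, log2 -0.44, SE 0.11, adjusted p = 0.0127). Its highest KD library, 114 CPM, was below its lowest WT library, 136 CPM. The call was lost without KD replicate 2 (log2 -0.31, adjusted p = 0.059) and in a fit to these 6 libraries alone (log2 -0.40, adjusted p = 0.149). IRAK4 would be called without KD replicate 1 (log2 -0.69, adjusted p = 0.00949). With LPS, IRAK1 was lower in KD, at 242 ± 6.81 CPM against 316 ± 19.2 CPM (0.766-fold, log2 -0.38, SE 0.08, adjusted p = 0.00704), and its libraries did not overlap. The call was lost without WT replicate 6 (log2 -0.33, adjusted p = 0.0591). In unstimulated cells IRAK1 had a log2 difference of -0.18 (adjusted p = 0.155).

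With LPS, 2 more of these genes lay close to the threshold between KD and WT. IRAK3 was at 153 ± 13.5 CPM in KD and 191 ± 2.65 CPM in WT (log2 -0.32, adjusted p = 0.0647). It was called by DESeq2 (adjusted p = 0.0259), with RLE size factors (adjusted p = 0.0454), in a fit to the 6 libraries alone (adjusted p = 0.00549) and with GC content as an offset (log2 -0.51, adjusted p = 0.0064). MYD88 was at 62.1 ± 6.0 CPM in KD and 41.2 ± 12.7 CPM in WT (log2 0.59, adjusted p = 0.101). It was called with no filter on low counts (adjusted p = 0.00172), in a fit to the 6 libraries alone (adjusted p = 0.0137), with the replicate number as a block (log2 0.63, adjusted p = 0.00408) and without WT replicate 5 (log2 0.83, adjusted p = 0.0417). The scrambled siRNA lay between KD and WT in the means of both IRAK1 and MYD88 with LPS. For IRAK3 with LPS, SCR and KD means were 149 and 153 CPM.

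**Figure D3:**
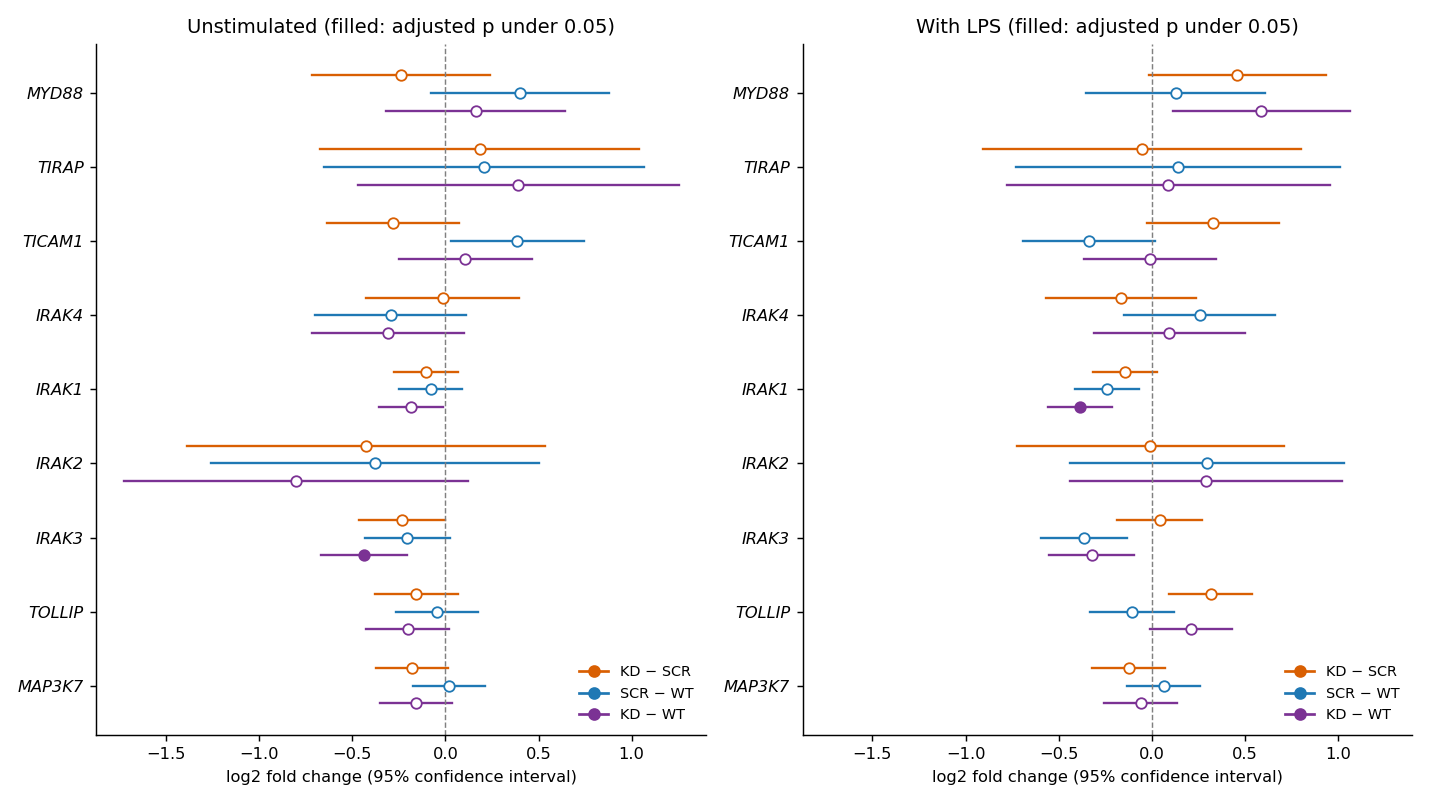
Log2 fold changes between conditions, with 95% confidence intervals from edgeR, in unstimulated cells (left) and with LPS (right), for KD minus SCR (orange), SCR minus WT (blue) and KD minus WT (purple). Filled points had an adjusted p under 0.05, which are IRAK3 in unstimulated KD against WT (-0.44) and IRAK1 in KD against WT with LPS (-0.38).

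Because genes passed the test for LPS in 1 condition and not in another, the difference between the responses was tested itself. The response differed between KD and SCR for 0 of the 9 genes, as for 0% of all genes, although 3 of the 9 and 1274 of all genes had an unadjusted p under 0.05. DESeq2 called 0 of the 9 and 3 genes overall. The largest of these differences was that of MYD88, with a log2 response 0.70 higher in KD than in SCR (95% interval 0.03 to 1.38, adjusted p = 0.643). TICAM1 had a response 0.61 higher in KD (95% interval 0.11 to 1.11, adjusted p = 0.604), and TOLLIP one 0.47 higher (95% interval 0.16 to 0.79, adjusted p = 0.569). Between SCR and WT, 0 of the 9 responses differed, where 0.234% of all genes did. At an unadjusted p under 0.05 there was 1 of the 9, and 1661 of all genes. The 1 of the 9 was TICAM1, whose log2 response was -0.72 in SCR relative to WT (95% interval -1.23 to -0.22, adjusted p = 0.363). It passed with no filter on low counts (-0.71, adjusted p = 0.00967). Between KD and WT, 0 of the 9 responses differed, where 0.36% of all genes did. At an unadjusted p under 0.05 there was 1 of the 9, and 2593 of all genes. DESeq2 called 0 of the 9 in these 2 comparisons as well, for which its count over all genes is not given here. The lowest unadjusted p was that of TOLLIP (log2 0.41, 95% interval 0.10 to 0.73, adjusted p = 0.214), and IRAK4 would be called without KD replicate 1 (log2 0.78, adjusted p = 0.0314). The responses of MYD88, TICAM1, TOLLIP and IRAK2 in the 3 conditions were thus not shown to differ. Their intervals leave room for differences of over 1 log2 unit in MYD88, TICAM1 and IRAK2.

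Other genes of the pathway were taken from lists of receptors, kinases and inhibitors, whose counts stand beside the 14.3%, 17.2% and 11.5% of all genes that changed with LPS in WT, SCR and KD. Of the LPS receptor genes, 2 of 3 tested fell with LPS in WT and in SCR and 1 of 3 in KD. CD14, the LPS co-receptor, fell from 16.2 to 9.69 CPM in WT (adjusted p = 0.0224), from 35.5 to 12.3 CPM in SCR (adjusted p = 2.31e-05) and from 26.7 to 12.7 CPM in KD (adjusted p = 0.00138). TLR4 fell from 15.3 to 7.28 CPM in WT (adjusted p = 0.00188) and from 10.3 to 6.14 CPM in SCR (adjusted p = 0.0317), and was at 7.90 and 7.89 CPM in KD. Unstimulated KD cells held less TLR4 than WT (log2 -0.96, adjusted p = 0.00697). In unstimulated SCR cells TLR4 differed from WT by -0.58 on the log2 scale, which did not pass the test. CD14 was higher than in unstimulated WT in both SCR (log2 1.14, adjusted p = 0.00311) and KD (log2 0.72, adjusted p = 0.0232). Without LPS, 2 of the 3 receptor genes thus changed between KD and WT, where 11.7% of all genes did. Between SCR and WT it was 1 of the 3, where 3.23% of all genes changed. Of 10 other receptors that use these adaptors, IL18R1 and IL18RAP, the chains of the IL-18 receptor, reached the level of the filter on low counts in 0 of 9 unstimulated libraries. They entered the test through their LPS libraries and are not counted. Of the remaining 8, 2 rose in WT, 1 did in SCR and 3 in KD, whereas 0 fell. TLR7, an endosomal RNA sensor, was among those that rose in each condition, from 2.38 to 7.23 CPM in WT, 1.93 to 6.17 CPM in SCR and 1.65 to 4.87 CPM in KD. IL18R1 held 0 to 2 counts in every unstimulated library and 4 to 32 with LPS.

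Downstream of the IRAKs, 1 of the 8 genes of the TRAF6 and TAK1 arm rose and 1 fell in both WT and SCR, and 2 rose in KD. PELI1, a ubiquitin ligase that acts on IRAKs, rose in all 3, from 10.1 to 26.3 CPM in WT (adjusted p = 7.59e-06), 11.8 to 24.6 CPM in SCR (adjusted p = 0.000215) and 7.62 to 21.2 CPM in KD (adjusted p = 7.76e-06). Of 7 IKK and MAP kinase kinase genes, 1 rose and 2 fell in WT, 2 rose and 1 fell in SCR, and 3 rose and 1 fell in KD. MAP3K8 (TPL2), the kinase upstream of ERK, rose in each, with log2 fold changes of 1.49, 1.48 and 1.34 in WT, SCR and KD, and IKBKB, a catalytic IKK subunit, fell in each, by 0.40, 0.39 and 0.31 on the log2 scale. CHUK, the other catalytic IKK subunit, rose in KD, from 27.0 ± 21.8 to 65.8 ± 9.78 CPM (SD, n = 3, adjusted p = 0.0497), and was higher in KD than in WT with LPS (65.8 against 19.8 CPM, adjusted p = 0.014). With LPS, 1 of the 7 was thus higher and 0 lower in KD than in WT, where 10.8% of all genes changed. Without LPS, 2 of the 7 were lower and 0 higher in KD, where 11.7% of all genes changed.

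In the TRIF arm, 1 of 7 genes rose with LPS in WT, 2 did in SCR and 3 in KD, whereas 0 fell, and 1 of 7 equals the 14.3% of all genes that changed in WT. TRAF3, the ubiquitin ligase that follows TICAM1, rose in each, from 62.1 to 113 CPM in WT, 76.2 to 99.1 CPM in SCR and 61.0 to 104 CPM in KD (adjusted p = 1.61e-06, 0.00944 and 1.18e-05). TANK, a scaffold of TBK1, rose in KD (log2 1.08, adjusted p = 0.00405) and was higher in KD than in WT with LPS (log2 1.07, adjusted p = 0.00823). Between KD and WT, 1 of the 7 changed with LPS and 0 without, where 10.8% and 11.7% of all genes did. Of 6 inhibitors tested, 3 rose in WT, 4 in SCR and 4 in KD. TNFAIP3 (A20), a ubiquitin-editing enzyme that acts on TRAF6, had the smallest adjusted p of its list in each condition, with means of 11.5 and 124 CPM in WT, 24.8 and 145 CPM in SCR and 22.9 and 119 CPM in KD. Its unstimulated level was higher in SCR (log2 1.1, adjusted p = 0.000827) and in KD (log2 0.99, adjusted p = 0.000727) than in WT. In each of these comparisons 1 of the 6 changed, where 3.23% and 11.7% of all genes did. The response of TNFAIP3 was smaller in KD than in WT (log2 difference -1.05, adjusted p = 0.0457), the only 1 of the 6 to differ, where 0.36% of all genes did. The response of TNFAIP3 in SCR relative to WT had a log2 difference of -0.88 (95% interval -1.35 to -0.41, adjusted p = 0.175), and that in KD relative to SCR one of -0.18 (-0.64 to 0.29, adjusted p = 0.876). PIK3AP1 (BCAP), an adaptor that links Toll-like receptors to PI3 kinase, rose from 47.4 to 113 CPM in WT, 46.6 to 123 CPM in SCR and 45.4 to 153 CPM in KD. Between KD and SCR, 0 of the genes on these 6 lists changed in either state, where 0.066% and 0% of all genes did, which is no result about these genes.

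**Figure D4:**
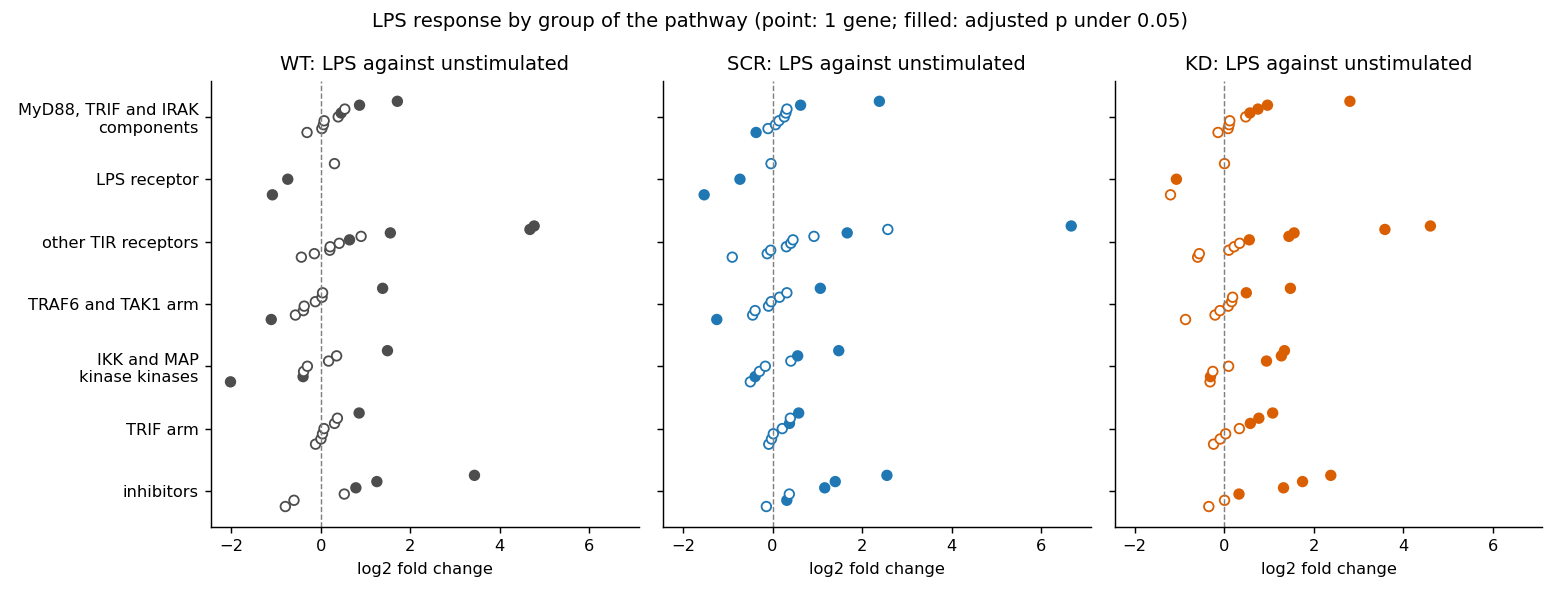
Log2 fold change of LPS against unstimulated cells for each gene tested on 7 lists of the pathway, in WT, SCR and KD. Each point is 1 gene and filled points had an adjusted p under 0.05; IL18R1 and IL18RAP, the points furthest right among the other TIR receptors, entered the test through their LPS libraries, and the SCR value of IL18R1, at 0 in unstimulated libraries, depends on the prior count.

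Across the 6 groups the 9 genes followed different patterns. The span of the group means was 2.55 log2 units for IRAK2 and 1.12 for MYD88, between 0.703 and 0.909 for IRAK4, TICAM1 and IRAK3, and 0.489, 0.414, 0.383 and 0.245 for TIRAP, TOLLIP, IRAK1 and MAP3K7, where the median over all genes was 0.715. MYD88 and IRAK2 were highest in KD with LPS, TICAM1, IRAK1 and IRAK3 in WT with LPS, and TIRAP, IRAK4 and MAP3K7 in SCR with LPS. TOLLIP was the only one whose highest group was unstimulated. The pair with the most alike patterns was IRAK1 and MAP3K7, the flattest genes, with a root mean square difference of 0.127 log2 units. MYD88 and TICAM1, which both rose with LPS in KD, differed by 0.198, more than pairs such as TIRAP and MAP3K7 (0.165) or IRAK4 and IRAK3 (0.187). These are descriptions over 6 group means, which share the libraries of this series.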

How the data were processed

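RNA of 18 THP-1 libraries was sequenced with QuantSeq, a 3-prime method. The authors removed low-quality reads, adaptors and poly-A, aligned reads with HISAT to human_g1k_v37 (GRCh37) and counted them with featureCounts against Ensembl 75, limited to 500 bases per gene. The deposited table holds raw read counts for 63677 genes, and 0 of its 18 columns were left out. From these counts, genes were filtered with filterByExpr by group, and edgeR 4.0.16 (R 4.3.3) estimated the mean of every group in a joint fit of the 18 libraries after TMM scaling. The 12 contrasts were tested with its quasi-likelihood test, adjusted over 16678 genes, and SE and 95% intervals came from the same fit. The fit was tested on simulated data. An exact permutation test of 3 against 3 cannot go below 0.1.

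Symbols, positions on GRCh37 and the last 500 bases came from GENCODE v44lift37, and promoters from RefSeq on GRCh38.p14, with no conversion between builds. The genes, pathway lists and tests were chosen with earlier results of these data known. From each pathway list up to 4 genes past the threshold were to be named, smallest adjusted p first; those named were taken from these, and TRAFD1 and 5 LPS response genes served as checks. The 3 genes most like a gene called in all LPS responses were named too. Libraries within a group differed beyond sampling noise (chi-square per gene 5.29 to 36.5).

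Replicate numbers are shared between conditions. The correlation of deviations over 8577 genes exceeded 0.1 in every pair only for SCR and WT with LPS (0.199, 0.439 and 0.555), where the block called 0 of the 9 genes. Alternatives were DESeq2 1.42.0, RLE size factors, no filter, the libraries compared alone, the study's threshold (log2 fold change over 1, adjusted p at most 0.01), the replicate block, leaving out each library and, chosen after seeing the data, GC content as an offset.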

Additional observations from a re-analysis of the deposited data

Results flagged for a closer look

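The LPS response of TNFAIP3 differed between KD and WT by the test of the difference itself (log2 difference -1.05, adjusted p = 0.0457 by edgeR), while the difference between SCR and WT was -0.88 (adjusted p = 0.175) and that between KD and SCR was -0.18 (adjusted p = 0.876). Between KD and WT, 0.36% of all genes differed in their response. The alternatives were read only for the 10 genes, so how far this call depends on the processing was not tested.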

How the results depend on the processing

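Counts of the 9 genes called stayed within 1.5 times the main count in 68 of 81 alternatives and in 82 of 90 fits that left out a library. These totals include KD against SCR, SCR against WT and the comparisons of responses, where the main test called 0 of the 9. A count that stayed at 0 there says little about processing, so no stability of the calls is read from the totals. With the study's threshold 1 gene, IRAK2, was called in each LPS response (1 in WT, 1 in SCR, 1 in KD), and 0 in KD against WT, unstimulated (1 in the main test) or with LPS (1). In KD against WT with LPS, 2 were called with RLE size factors, no filter, DESeq2, the replicate block and the GC offset, and 3 in a fit to the libraries compared. That fit called 0 in unstimulated KD against WT. How many of all genes each alternative called in these comparisons is not given here, so the counts of the 9 are descriptions only. The response of SCR against WT had 1 call, TICAM1, with no filter. Without 1 library, calls ranged from 1 to 3 in the LPS response of SCR (1 without SCR replicate 1, 2 or 6), from 0 to 2 in unstimulated KD against WT (0 without KD replicate 2, 2 without KD replicate 1), from 0 to 2 in KD against WT with LPS (0 without WT replicate 6, 2 without WT replicate 5), and from 0 to 1 in the response of KD against WT (1 without KD replicate 1). With the GC offset the LPS response of IRAK1 in SCR was 0.013, of MAP3K7 in SCR -0.041 and of MAP3K7 in KD -0.013. Without 1 library, MAP3K7 in WT ranged from -0.023 to 0.078, TICAM1 in SCR from -0.10 to 0.31 and TIRAP in KD from -0.36 to 0.46. Single genes were followed only in the LPS responses within a condition and in comparisons with a main unadjusted p under 0.05. The other values among these kept their direction in the alternatives. The causes were not tested. In the comparisons between conditions and of their responses, the replicate block changed no call of the 9 genes besides MYD88 in KD against WT with LPS (log2 0.63, adjusted p = 0.00408). It was not run for the LPS responses within a condition, whose groups share no replicate number. Outside SCR and WT with LPS, same-numbered libraries did not deviate together in every pair (correlations -0.198 to 0.672). Single pairs did, such as replicate 1 of KD and WT without LPS (0.672). Whether the libraries there share more than a number is therefore not known. Depth limits IRAK2, TIRAP and TICAM2, which held at most 82, 60 and 2 counts per library.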
